A study of Penicillium oxalicum with 6 samples.

Results

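The 9 gene IDs POX09748 to POX09756 of the filamentous fungus Penicillium oxalicum are the deleted gene POX09752 and the 4 IDs on each side of it by number, out of 9834 IDs in the tables. The rule that picks them uses the ID number alone and no expression value, although it was set with earlier results of these data known. RNA sequencing compared 3 libraries of the strain labelled MuPOX09752, in which POX09752 was deleted, with 3 libraries of the strain labelled Ku70, the control. Both strains are labelled as mutants, and the growth text of all 6 samples names only MuKu70, so whether the MuPOX09752 strain also carries the Ku70 change was not stated. All cultures were mycelium from spores kept on potato-dextrose agar for 6 days, with hyphae then moved to liquid medium with 2% Avicel, a microcrystalline cellulose, for 24 h at 28 °C and 180 rpm. How many independent transformants stand behind each strain, the construct that replaced the gene, and whether the 3 libraries of a strain came from separate cultures were not stated. The p-values therefore rest on the spread among the libraries, which may be technical.

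POX09752 is called a transcription factor in the study's design text, which asks how it affects transcripts of cellulase and xylanase genes. Transcription factors bind DNA and raise or lower the transcription of other genes, and in filamentous fungi such factors control the secreted enzymes that break down cellulose and xylan. Gene deletion in these fungi usually replaces the coding sequence with a marker by homologous recombination. Ku70 is part of the non-homologous end-joining machinery, and hosts that lack it are widely used because targeted replacement is then more frequent. A replacement can in principle alter genes that lie next to the target, which is why the target is read here together with the IDs around it.

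The tables used here pair these IDs with no product name, sequence or position. The RefSeq gene table for strain HP7-1 writes its gene tags in another format, and 0 of 9834 IDs matched it as written. This does not show that the genes are absent from it. Whether consecutive numbers mean adjacent genes was therefore not tested, and neighbour means a neighbour by ID number throughout. No role is given for the 8 neighbours for the same reason.

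The total expected count (the estimated number of reads assigned to genes) lay between 13099454 and 14115694 per library. Across genes, Pearson's r on the log2(FPKM + 1) scale was 0.995 to 0.996 between control libraries, from 0.981 to 0.993 between deletion libraries and from 0.883 to 0.898 between strains. Deletion replicate 3 stood apart from the other deletion libraries, with chi-square values per degree of freedom of 76.6 and 81.9 against them, compared with 11.9 between deletion replicates 1 and 2. Each library pair differed by more than counting error, so none was treated as a repeat deposit of another, which does not show that they came from separate cultures.

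Transcripts of POX09752 were absent at this depth from the deletion strain. Its expected count was 1568, 1375 and 1663 in the 3 control libraries and 0 in each of the 3 deletion libraries. In FPKM (fragments per length of gene and per depth of the library) the control libraries stood at 46.4, 42.6 and 49.9, a mean of 46.3 ± 3.64 (SD, n = 3). The groups did not overlap, and a count of 0 over the deletion libraries together allows up to 3 counts, or 0.0313 FPKM, for counting error only. Against that floor of 3 counts over the 3 libraries, transcripts in the deletion strain were at least 1479-fold lower (edgeR's quasi-likelihood test, with adjusted p = 4.73e-07). A two-sided exact permutation test on log2(FPKM + 1) gave p = 0.1, which is as low as groups of 3 and 3 can reach. In the control POX09752 was a moderately expressed gene, above 68.6% of all IDs by mean FPKM, and took 0.0102% to 0.0119% of a library's counts.

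**Figure D1:**
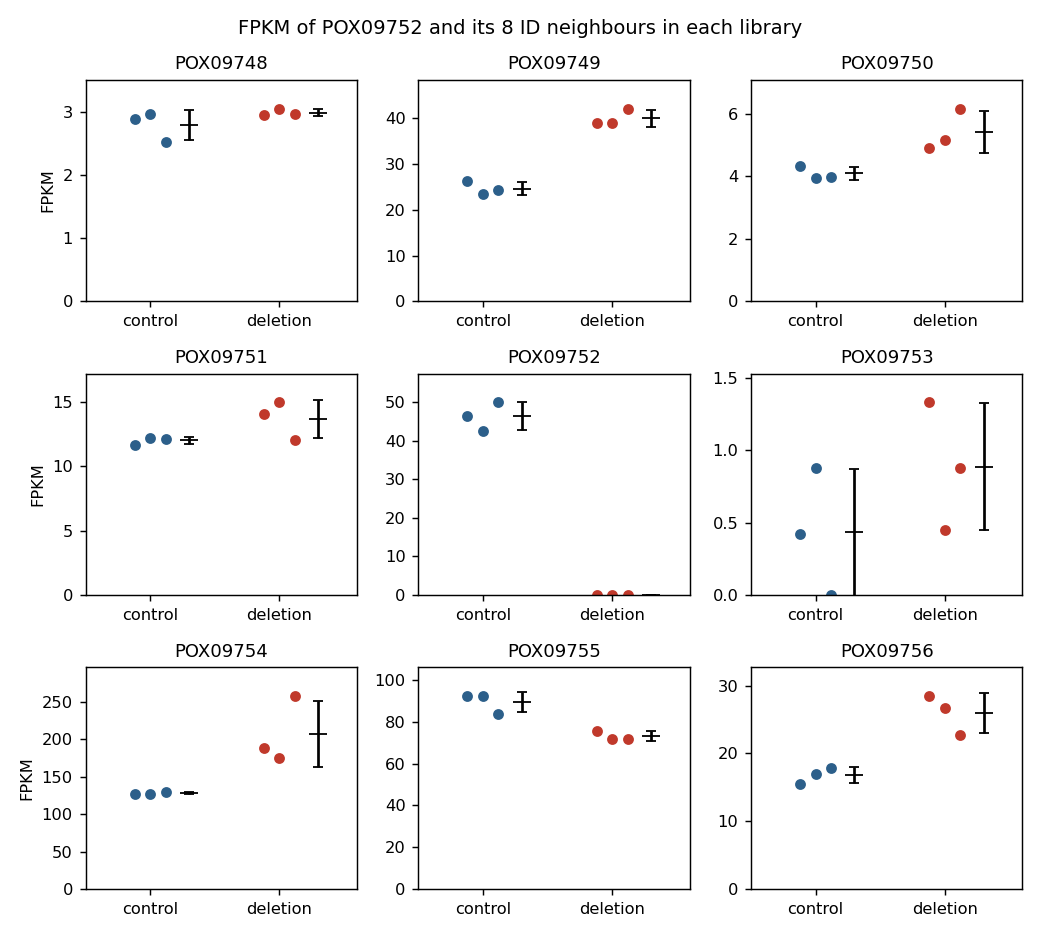
FPKM (vertical axes, each from 0) of the 9 IDs in the control (blue) and deletion (red) libraries; each point is 1 library and the bar beside it is the mean ± SD of 3 libraries. POX09752 stands at 42.6 to 49.9 FPKM in the control and at 0 in all deletion libraries, while no neighbour is lost.

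No other well-expressed ID was at 0 in the deletion strain. Of 5539 IDs with at least 1000 counts over the control libraries, 1 had no count in any deletion library, and that was POX09752. The next lowest by ratio, POX03867, kept 20 counts over the deletion libraries against 40085 over the control libraries. In all, 136 IDs had a count of 0 in every deletion library, of which 93 were at 0 in the control as well. Among the remaining 43, the highest summed control count other than that of POX09752 was 9. The 3 with the highest control FPKM after POX09752 were POX01698, POX03542 and POX08931, with 5, 9 and 3 counts over the control libraries. The opposite case was more frequent: 197 IDs had counts in the deletion libraries only, 39 of them with more than 9 counts in sum, and the highest sum was 638 counts, for POX09811.

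**Figure D2:**
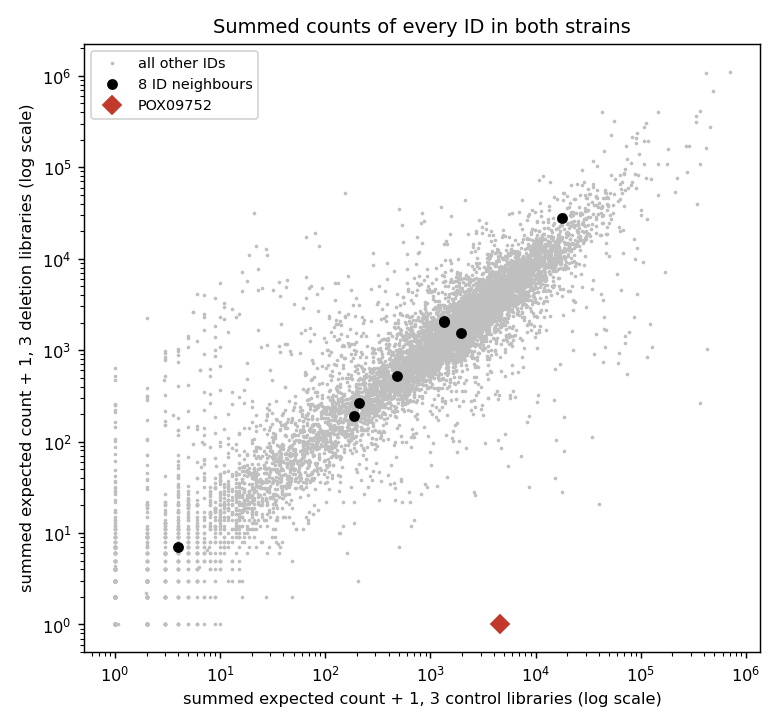
Summed expected count + 1 over the 3 control libraries (horizontal, log scale) and over the 3 deletion libraries (vertical, log scale) for every ID; grey points are all other IDs, black circles the 8 ID neighbours (POX09749 and POX09756 lie nearly on top of each other), and the red diamond is POX09752. POX09752 lies on the lower edge, with 4606 counts in the control and 0 in the deletion strain, far to the right of the other IDs on that edge, which have at most 9 control counts, and the neighbours lie within the cloud of the other IDs.

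The 5 genes whose FPKM profile over the 6 libraries was nearest to that of POX09752, by Euclidean distance of log2(FPKM + 1), all kept some counts in the deletion strain. The nearest, POX01181, lay at a distance of 1.51 and had 37.8 ± 6.38 FPKM in the control and 0.66 ± 0.44 in the deletion strain (SD, n = 3 each). POX07751 followed at a distance of 1.74, with 48.8 ± 7.90 FPKM in the control and 0.94 ± 0.50 in the deletion strain. POX09340, POX02621 and POX01179 lay at distances of 2.01, 2.02 and 2.12. The closest of the 5 by number, POX09340, was 412 numbers below POX09752, so none was a neighbour. These genes were picked for their resemblance, and their levels are a description.

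All 8 neighbours had counts in the deletion libraries, and the fold differences of the 7 that were tested were under 2. Of the 8, 1 (POX09753) had a mean under 1 FPKM over the 6 libraries, the limit for testing. Of the 7 tested, 3 rose and 1 fell in the deletion strain, and 3 did not pass the test (edgeR's quasi-likelihood test at a p under 0.05 after Benjamini-Hochberg adjustment over 8807 tested genes). Over all tested genes 60.1% were called, 29.8% as higher and 30.2% as lower, so 4 calls among 7 are near the background and are no result about the neighbours. The groups' FPKM values did not overlap for 5 of the 7, against 67.7% of all tested genes. The 4 called neighbours differed by 1.25-fold to 1.59-fold, whereas 20.6% of all tested genes were called and changed at least 2-fold. Their median log2 fold change was 0.37 over the 7, beside 0.01 over all tested genes.

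The IDs directly beside POX09752 by number were not called. POX09751, 1 number below, had 14.04, 14.95 and 12.03 FPKM in the deletion libraries and 11.68, 12.16 and 12.15 FPKM in the control libraries. The groups overlapped, because deletion replicate 3 lay within the range of the control libraries. The log2 fold change was 0.16 ± 0.13 (SE, edgeR adjusted p = 0.309), with a 95% interval of the deletion to control ratio from 0.91 to 1.36. A change of 1.5-fold in either direction lies outside this interval. POX09753, 1 number above, was barely detected, with 3, 1 and 2 counts in the deletion libraries and 1, 2 and 0 in the control libraries. Its ratio of summed counts, scaled to library totals, was 2.08, and its 95% exact binomial interval ran from 0.44 to 12.8 on counting error alone, so a difference was not detectable at this depth. Its effective length (the length that count, FPKM and library total imply) was 169 bases, the shortest of the 9.

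Below POX09752 by number, 1 of the 4 neighbours was called, beside 60.1% of all tested genes. POX09749 rose, with 38.9, 39.0 and 42.1 FPKM in the deletion libraries and 26.2, 23.4 and 24.3 FPKM in the control libraries. Every deletion library lay above every control library. The rise was 1.59-fold, or 0.67 ± 0.09 on the log2 scale (SE, edgeR adjusted p = 0.000305). POX09750 had 4.89, 5.17 and 6.16 FPKM in the deletion libraries and 4.34, 3.94 and 3.99 FPKM in the control libraries. These groups did not overlap, yet the log2 fold change of 0.37 ± 0.16 did not pass the test (SE, edgeR adjusted p = 0.0724). The 95% interval of the ratio, which is not adjusted for the number of genes, ran from 1.01 to 1.65. The sign of the log2 fold change turned under quantile normalisation in limma (-0.03). POX09748, the lowest of this side, had 2.95, 3.05 and 2.96 FPKM in the deletion libraries and 2.88, 2.97 and 2.52 FPKM in the control libraries. The groups overlapped, with a log2 fold change of 0.07 ± 0.15 (SE, edgeR adjusted p = 0.723) and a 95% interval of the ratio from 0.82 to 1.33. Quantile normalisation turned its sign and called it, at -0.36 (limma, adjusted p = 0.0411).

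Above POX09752, all 3 tested neighbours were called, in different directions, beside 60.1% of all tested genes. With so few IDs on each side, these counts are no result about either side. POX09754, the most strongly expressed of the 9, had 188, 176 and 258 FPKM in the deletion libraries and 127, 128 and 130 FPKM in the control libraries. All deletion libraries were higher, and deletion replicate 3 was far above the other deletion libraries. The rise was 1.58-fold, or 0.66 ± 0.15 on the log2 scale (SE, edgeR adjusted p = 0.0053). Without deletion replicate 3 it was 0.49 and still called (edgeR adjusted p = 0.00013). POX09756 rose as well, with 28.4, 26.7 and 22.7 FPKM in the deletion libraries and 15.5, 17.0 and 17.9 FPKM in the control libraries. The groups did not overlap, although deletion replicate 3 was here the lowest of its group, and the rise was 1.51-fold, or 0.60 ± 0.11 on the log2 scale (SE, edgeR adjusted p = 0.00187). POX09755, between them by number, fell, with 75.7, 71.7 and 71.7 FPKM in the deletion libraries and 92.2, 92.2 and 83.8 FPKM in the control libraries. The groups did not overlap, and the fall was 1.25-fold, or -0.32 ± 0.08 on the log2 scale (SE, edgeR adjusted p = 0.00854).

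The order of the levels was the same in both strains apart from POX09752. In the control, POX09754 led at 128 FPKM, followed by POX09755 at 89.4, POX09752 at 46.3, POX09749 at 24.6, POX09756 at 16.8 FPKM, and then POX09751 at 11.68 to 12.16 FPKM. POX09750 at 4.09, POX09748 at 2.79 and POX09753 at 0.43 FPKM made up the low end. No 2 IDs next to each other in this order overlapped over the 3 control libraries. In the deletion strain the 8 neighbours kept this order, again without overlap between successive IDs, and POX09752 dropped to the bottom at 0. FPKM is scaled to gene length, so these levels can be set beside each other.

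The spread between replicates differed among the members. In the control libraries the counts of POX09754 varied by no more than counting error, with a chi-square of 0.70 per degree of freedom, while in the deletion libraries this value was 417. Its coefficient of variation was 1.11% in the control and 21.3% in the deletion strain. For POX09756 the chi-square per degree of freedom was 8.84 in the deletion libraries and 2.25 in the control. For POX09748, POX09749, POX09750 and POX09753 it was under 1.5 in both strains. POX09752 itself varied by more than counting error in the control, at 9.29. The 8 neighbours together took 0.0555% to 0.0561% of the counts of a control library and 0.0748% to 0.101% of those of a deletion library, most of it from POX09754.

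Expected counts were whole numbers for all 9 IDs in all 6 libraries (0 of 9 had a fractional count). A fractional count appears where reads fit more than 1 gene, as it did in at least 1 library for 11.2% of all IDs. No count of the 9 IDs thus shows the mark of reads divided between similar genes.

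**Figure D3:**
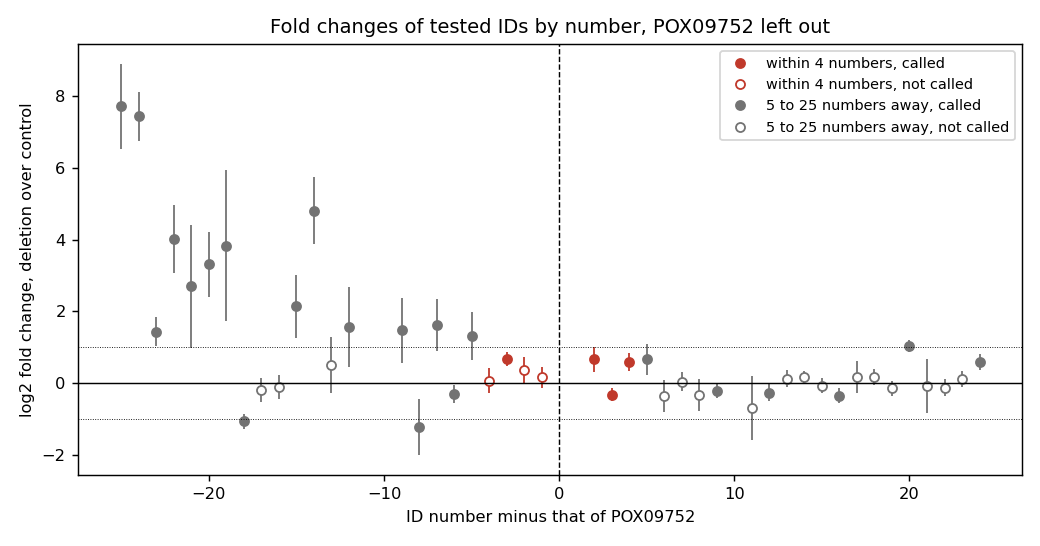
Log2 fold change of the tested IDs within 25 numbers of POX09752 (vertical; bars are 95% intervals from edgeR) against the ID number minus that of POX09752 (horizontal), with POX09752 left out. Filled points passed the test, red points are the neighbours within 4 numbers, and dotted lines mark 2-fold; the red points lie between -0.32 and 0.67, and most of the changes past 2-fold lie to their left.

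Further out by number the IDs below and above POX09752 had different values; this division of the window was made with the values known and was not tested. Within 25 numbers on each side 45 of 50 IDs were tested, and 57.8% of them were called, close to the 60.1% of all tested genes. Of the 19 tested IDs that lay 5 to 25 numbers below POX09752, 16 were called, and 15 were called and at least 2-fold changed, 13 of them higher and 2 lower in the deletion strain. Of the 19 tested IDs that lay 5 to 25 numbers above, 6 were called and 1 was called and at least 2-fold changed. The count of 15 fell to 8 in limma with a pseudocount of 5, and the count of 1 to 0. The count of 1 became 2 without the filter on low values, and also without deletion replicate 1, control replicate 1, control replicate 2 or control replicate 3, each left out in turn, while the count of 15 was then 13 to 14 with any of those libraries left out and 17 without the filter. The 7 tested neighbours, with none past 2-fold, lay by number between a side of large changes and a side of small ones. Over all tested genes 20.6% were called and at least 2-fold changed. With 7 IDs, 0 cannot be told apart from that share and is no result about the neighbours. The median absolute log2 fold change was 1.56 on the lower side, 0.37 over the tested neighbours and 0.17 on the higher side, beside 0.44 over all tested genes. Their levels differed too. The median control FPKM was 3.67 on the lower side, 14.4 over the 8 neighbours and 43.6 on the higher side, beside 23.2 over all IDs. The part of the level in the size of the changes was not tested.

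The lower side began directly outside the neighbours. POX09747, 5 numbers below POX09752, rose from 4.53 ± 1.42 to 11.5 ± 3.11 FPKM (SD, n = 3 each, edgeR adjusted p = 0.00483), while POX09748, the next ID, had 2.79 ± 0.24 and 2.99 ± 0.06 FPKM. The largest fitted changes among the tested IDs of this window were those of POX09727, POX09728 and POX09738. POX09727 had 73, 115 and 97 counts in the deletion libraries and 1 count in the control, in control replicate 3, a ratio of 296 with a 95% exact binomial interval from 52.7 to 11724. POX09728 rose from 0.54 ± 0.26 to 98.9 ± 21.1 FPKM (SD, n = 3, edgeR adjusted p = 5.68e-07), and POX09738 from 2.22 ± 0.33 to 64.4 ± 29.7 FPKM (SD, n = 3, edgeR adjusted p = 2.73e-05).

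**Figure D4:**
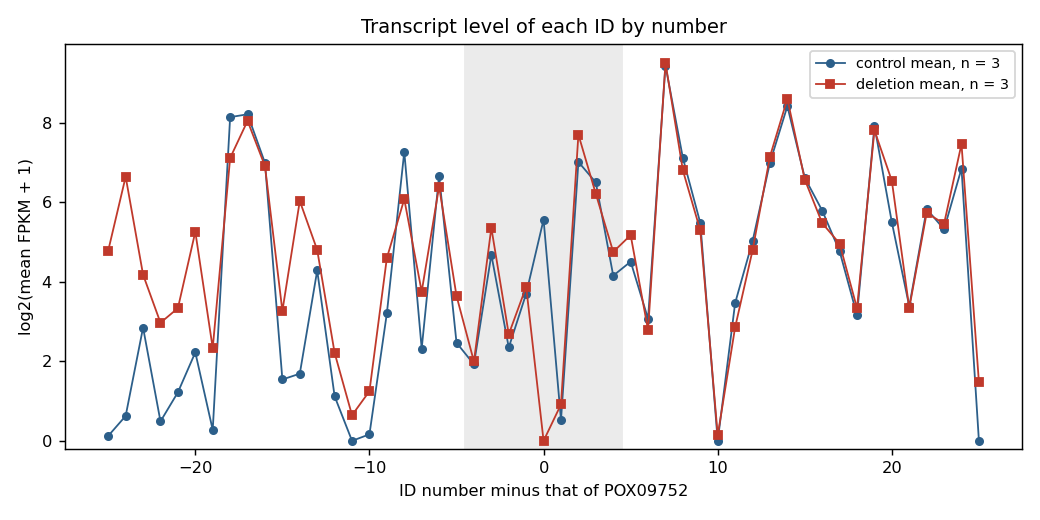
Transcript level, as log2(mean FPKM + 1) over 3 libraries (vertical), of each of the 51 IDs within 25 numbers of POX09752 (horizontal), in the control (blue circles) and deletion strain (red squares); the shaded band holds the 9 IDs POX09748 to POX09756. Within the band the lines part by a wide margin at POX09752 only, and to the left of it many IDs are low in the control and higher in the deletion strain.

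All 9 IDs lie in the highest-numbered 5% of IDs, which begin at number 9343 and hold 430 tested genes. There 73.5% of tested genes were called, and 49.1% were called and at least 2-fold changed. Over all tested genes these shares were 60.1% and 20.6%, and of the 7 tested neighbours 0 were past 2-fold. On the lower side 11 of 21 IDs had a fractional count in at least 1 library, on the higher side 4 of 21, among the neighbours 0 of 8 and in the highest-numbered 5% 20.7%. The median coefficient of variation between deletion libraries was 35.7% on the lower side, 11.7% on the higher side and 10.9% over the tested neighbours. The part of shared reads and of this spread in the large changes of the lower side was not tested.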

How the data were processed

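The authors deposited, per library, an expected count (not normalized) and an FPKM value (scaled by them to gene length and library total), per the file headers, for 9834 IDs. Per the submitters' processing notes, RSEM 1.2.12, Bowtie2 2.1.0, BWA 0.7.10-r789 and DESeq2 were used, in roles they do not state. Build, annotation and strandedness: not given in the sources used here, so overlap with antisense genes cannot be assessed.

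Samples were grouped by the strain in the labels. Expected counts were rounded and tested with edgeR 4.0.16 (R 4.3.3): TMM scaling, quasi-likelihood F test, genes whose mean FPKM was 1 or more, Benjamini-Hochberg adjustment over all 8807 tested genes, calls at adjusted p under 0.05. Standard errors are |log2 fold change| over the root of F, and 95% intervals use the fit's degrees of freedom. The test was checked on simulated data. The simulation changed far fewer genes than were called here, so it does not check the scaling under changes this widespread. Alternatives in edgeR used other scaling, other filters, a replicate block or 1 library left out. Further alternatives were DESeq2 1.42.0 on the rounded counts and limma 3.58.1 on log2(FPKM + 1). Limma was also run with pseudocounts of 0.1 and 5, with quantile normalisation and with a replicate block. Named genes were all 9 members, the 3 largest called changes within 25 numbers, the 5 nearest profiles, and 3 further IDs at 0 in the deletion strain. POX03867, POX09811, POX09747, POX09746, POX09734 and POX09744 were named after their values were seen. The rule for the members, which uses ID numbers alone, and the lists and tests were set with earlier results of these data known. No molecular identifiers are stated, so count intervals and floors hold counting error alone. The letters F, S and T in the titles did not meet the rule for pairing.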

Additional observations from a re-analysis of the deposited data

How the results depend on the processing

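The calls for the neighbours changed little over the 18 other fits. Of the 8 neighbours 4 were called in 16 fits and 5 in the others, limma with a pseudocount of 5 and limma with quantile normalisation. POX09749, POX09754, POX09755 and POX09756 kept direction and call in each of the 18. The log2 fold change of POX09748 (0.07) reversed to -0.36 under quantile normalisation, with a call, and ran from -0.0018 (without control replicate 3) to 0.11 (without control replicate 1) with a library left out. That of POX09750 (0.37) reversed to -0.031 under quantile normalisation and was called at 0.19 with a pseudocount of 5 (limma, adjusted p = 0.0494). The cause was not tested. POX09753 was tested only without the filter on low values (log2 fold change 0.93, edgeR adjusted p = 0.407). POX09752 was called in each fit, but its fitted value ran from -13.65 to -3.36 and is no bound. Within 25 numbers 26 of the 45 tested IDs were called, and dropping any single library gave 21 to 28. Windows of 2, 10 and 50 numbers per side hold other IDs. In them 1 of 3, 11 of 17 and 70 of 92 tested IDs were called. The share in the window of 50 numbers was thus above the 60.1% of all tested genes, a difference that was not tested. The count of all called genes was 5290, and 4459 to 5819 with a library left out. The 15 IDs below POX09752 changed at least 2-fold became 8 with a pseudocount of 5, which shrinks low genes, and the 1 above became 0 to 2 over the other fits. The letters did not clearly pair the libraries (correlations of deviations -0.017, 0.156 and 0.075 for the same letter); a replicate block of letters gave 5283 called genes, 4 called neighbours and 25 called IDs within 25 numbers in edgeR, and 5119, 4 and 24 in limma. Depth limits POX09753, with 9 counts in all.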
